A study of Mus musculus with 2 samples.

Results

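The flanks of 4-fold gains are array probes that lie close to, but outside, the places where hypothalamic DNA gave at least 4-fold more methylation-dependent signal at weaning age than at birth. Probes were joined into runs wherever neighbours lay at most 500 bp apart. A run of at least 2 probes on an autosome was a core run when its mean log2 ratio of P21 over P0 was at least 2 over both arrays and at least 1 on each. A probe outside the core runs was a flank probe when its start lay within 20000 bp of a core edge. The rule gave 115 core runs with 493 probes and 604 flank probes, of 89726 probes kept in all. Each flank probe was counted with its nearest core, which put them in 135 runs beside 63 of the core runs. Of the other 52 core runs, 51 had no flank probe in reach and 1 had only flank probes that lay nearer to another core. The same measured ratios chose the core runs, so the flank ratios are given as a description, and so are the counts of calls from a model fitted on all runs.

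Hypothalamic genomic DNA of newborn mice (P0) was compared with that of mice 21 days old (P21). All mice were female and non-agouti, on a mixed background of C57BL/6J and C3H/HeJ, so age was the only labelled difference between the groups. Each of 2 biological replicates was 1 array that carried both ages. On array A the red dye, Cy5, marked P0 and the green dye, Cy3, marked P21, and on array B the dyes were exchanged. The sources used here do not give the number of animals or say whether DNA was pooled, so the spread between the arrays may be partly technical. The hypothalamus is a mixture of neurons, glia and vessels, and a shift in the share of cell types and a change within a cell type cannot be told apart in such DNA.

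In mammals, DNA methylation is placed mostly on cytosines that precede guanines, and the pattern in the brain is still being remodelled after birth while glia are formed and neurons mature. Methylation of neighbouring sites tends to be similar over short distances, and regions of change often have edges at which the level shifts. The assay used here reads such sites through a pair of enzymes that both recognise CCCGGG. SmaI cuts the unmethylated sites to blunt ends, XmaI then cuts the remaining methylated ones to sticky ends, and adaptors join the sticky ends so that fragments between methylated sites are amplified. A higher ratio is therefore more amplified fragment at P21, not a percentage of methylation. A fragment is read by several probes, so neighbouring probes can share their source and are not independent measurements. Runs were cut by probe spacing, and no fragment ends were located. A flank probe may therefore lie on the same fragment as its core, which was not tested. The arrays give positions on genome build mm8 and no gene names, and no gene or CpG island was assigned to any position.

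The core runs from which the flanks were measured lay on 19 chromosomes and had a median span of 596 bp (131 to 2018 bp). Most of them, 84 of 115, held 4 probes. Their median log2 ratio was 2.44 on A and 2.32 on B, or 5.25-fold for the mean of both, and the highest was 4.07. The core just inside the threshold had a mean of 2.0011 and the run just outside it 1.99965, so flank runs are bounded from above near 2 by construction. At the outer limit, the last flank probe lay at 19959 bp (log2 0.08) and the next probe beyond the limit at 20018 bp (log2 -0.02). A flank probe was in reach of 55.7% of the core runs, and a probe was in reach of 53.4% of the other autosomal runs weighted to the same probe numbers. What follows therefore concerns the 64 cores that had a flank probe in reach.

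Taken over all 604 probes, the flanks were close to unchanged. Their median log2 ratio was 0.06 on A and 0.14 on B, and 0.08 for the mean, where the median of all autosomal probes was 0 after centring. A ratio above 0 on both arrays was found at 235 probes (38.9%), against 28.3% of all autosomal probes. A ratio below 0 on both arrays was found at 124, with no share of all autosomal probes set beside it, so nothing is read from that count. By a rule of size, at least 2-fold by the mean and at least 1.5-fold on each array, 63 flank probes were higher at P21, or 10.4%. The same rule was met by 4.5% of all probes. Because the cores were chosen on the same contrast, neither this gap nor that in the share above 0 is evidence of its own. Signal 2-fold lower was found at 4 flank probes (0.662%), against 0.868% of all probes. The 63 raised probes lay in 25 runs beside 23 cores, and 45 of them (71.4%) were within 5000 bp of the core, where 26.5% of the flank probes lie.

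The change varied with the distance from the core, and nearby flank probes may share a fragment with it. Between 500 and 1000 bp from the edge, 20 probes in 13 runs beside 13 cores had a median log2 ratio of 2.00 on A and 1.52 on B, or 3.28-fold for the mean. All 20 were above 0 on both arrays, their means ranged from 0.47 to 2.97, and 17 met the 2-fold rule. Between 1000 and 2000 bp, 14 probes beside 6 cores had medians of 0.96 on array A and 0.26 on array B, and 4 met the rule. Between 2000 and 5000 bp, 126 probes beside 22 cores had medians of 0.12 and 0.37, and 24 met it. Farther out the medians were near 0. They were -0.003 on array A and 0.06 on array B for the 157 probes between 5000 and 10000 bp, and 0.03 and 0.08 for the 287 probes between 10000 and 20000 bp. In those outer classes 6 and 12 probes met the rule, and all 4 2-fold lower probes were in the farthest class. Over the mean of the arrays the class medians, from the nearest to the farthest, were 1.71, 0.70, 0.23, 0.03 and 0.06.

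Probes near the other autosomal runs, weighted to the probe numbers of the cores, served as the reference at each distance. Their medians were -0.05 between 500 and 1000 bp, -0.06 between 1000 and 2000 bp, and within 0.01 of 0 beyond. The flanks exceeded this reference by 1.76 log2 units in the nearest class (2.01 on array A and 1.59 on array B) and by 0.76 in the next (0.99 and 0.34). Between 2000 and 5000 bp they exceeded it by 0.23 (0.14 and 0.34), and beyond 5000 bp by 0.03 and 0.06. The share of probes that met the 2-fold rule was 85% in the nearest flank class against 2.61% near other runs. Between 1000 and 2000 bp the share was 28.6%, which is 4 of 14 probes, against 3.32%. It was 19.0% against 5.80% between 2000 and 5000 bp. From 5000 bp outwards it was below the reference, 3.82% against 4.82% and then 4.18% against 5.15%.

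**Figure D1:**
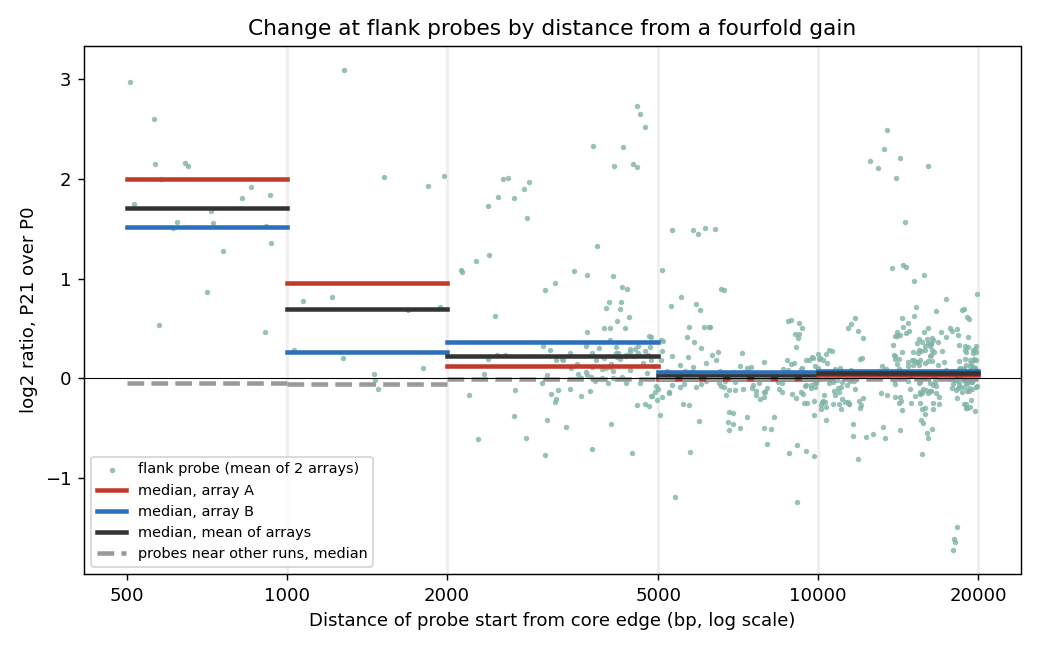
Log2 ratio of P21 over P0 (vertical axis) of each of the 604 flank probes by the distance of its start from the core edge in bp (horizontal axis, log scale), as the mean of 2 arrays; bars are class medians on array A (red), array B (blue) and their mean (black), and dashed bars are medians of probes near other runs. The class medians fall from 1.71 to 0.70 and 0.23, and lie at 0.03 and 0.06 beyond 5000 bp, while single probes above 2 occur out to the farthest class.

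The nearest flank probes were dim, and the size of their change moved with the background correction. The median log2 intensity at P0 was 7.35 between 500 and 1000 bp and 6.07 between 1000 and 2000 bp, against 9.39 and 9.33 at the same distances near other runs and 9.72 for all autosomal probes. Of the nearest 20 probes, 16 were well above background in both dyes of both arrays by the scanner software's flag, and of the next 14 only 7 were. With the normexp background model and loess dye correction, the same 20 probes had a median of 1.24 on array A and 0.29 on array B, or 0.81 for the mean. The same 14 probes then had a median of 0.20. Restricted to probes well above background everywhere, with cores and flanks found again, the nearest class had a median of 1.62 in the main values. Under that filter the class from 1000 to 2000 bp had a median of 0.28, which exceeded the reference by 0.35. Normexp with its offset of 50 shrinks dim ratios by construction. Beyond 2000 bp the median log2 intensity at P0 was 8.88, 9.29 and 9.56 in turn, and the normexp medians of the same probes were 0.10, 0.02 and 0.04. In all, 33 of the 604 flank probes met the 2-fold rule with those values, where 2.7% of all probes did. Because the cores were chosen on the same contrast, nothing is read from this gap.

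The nearest class can be told probe by probe. The closest flank probe of all, chr15:85352623-85352677, 507 bp from its core, was at 2.73 on array A and 3.22 on array B, or 7.85-fold. A lone probe on chromosome 17, chr17:45064112-45064167, 562 bp from its core, was at 2.54 and 2.65, or 6.05-fold. These are higher than most core runs, but a lone probe cannot be a core under the rule. The 5 nearest-class probes that had no neighbour within 500 bp had a median of 2.16 and ranged from 1.57 to 2.97. Only 3 of the 20 nearest probes missed the 2-fold rule, at chr10:68794639-68794683 (0.80 and 0.14), chr19:45293840-45293889 (0.33 and 0.74) and chr5:118697915-118697959 (0.76 and 0.96). The last of these has a neighbour 142 bp away, chr5:118698057-118698108, at 2.28 and 2.02. High probes were thus spread over most of the cores that had a probe this near, and 12 of the 13 runs in the class held at least 1 of them.

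In the classes beyond, few runs carried the raised probes. Between 1000 and 2000 bp, 3 of the 4 2-fold higher probes were neighbours in 1 run on chromosome 2, at 2.02, 1.93 and 2.03. The fourth, chr15:98601861-98601920, read 4.63 on array A and 1.56 on array B at a log2 intensity of 2.38 at P0, the dimmest of the raised stretches, and it was at 0.58 with normexp and loess. Between 2000 and 5000 bp, 20 of the 24 2-fold higher probes were in 4 runs, and 1 run alone held 8. Without those 8, 16 of the probes in that class would be 2-fold higher.

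Because probes of 1 core can pull a class, each core was also set against its nearest flank run of at least 2 probes within 5000 bp. Of 230 core sides, 31 sides of 28 cores had such a run. The run was lower than its core on both arrays on all 31 sides, which the limit on flank runs makes likely. Lone probes nearer to the core are passed over in this comparison. On sides counted here they were at 2.60 beside a chromosome 17 core at 2.43 and 1.32 beside a chromosome 8 core at 2.15. Another was at -0.12 beside a chromosome 5 core at 3.16. The median drop was 1.84 log2 units, or 2.01 on array A and 1.76 on array B, and it ranged from 0.20 to 4.16. On the 9 sides with a gap of at most 1000 bp the flank runs had a median of 1.51, and 7 of them reached 1. Among these, 1 run that lies between a pair of cores is counted on a side of each. Over the 8 distinct runs the median was 1.34, and 6 reached 1. On the 21 sides with a gap from 2000 to 5000 bp the median was 0.23, 1 reached 1 and 12 were within 0.5 of 0. Across the 31 sides the height of the core and that of its flank run had a Pearson r of -0.21, given as a description over sides that share arrays and in 1 case a flank run.

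The sides with a gap of at most 2000 bp show how differently cores could be bounded. The smallest drop was on chromosome 4, where the core chr4:140023394-140023774 was at 2.27 on A and 1.81 on B. The run 532 bp before it, chr4:140022675-140022862, was at 2.04 and 1.64, a drop of 0.20 for the mean. The largest drop within 2000 bp was also on chromosome 4. There the core chr4:141340698-141341161 was at 2.52 and 2.43, and the run 1274 bp after it, chr4:141342435-141343423, was at 0.59 and -0.24, a drop of 2.30. The probes of that second run were among the dimmest of the flanks, with log2 intensities at P0 from 2.07 to 3.86. On chromosome 6 the core chr6:88201114-88201895 was at 2.53 and 2.57 and the run 703 bp before it was at 1.16 and 0.88, intermediate on both arrays, with log2 intensities at P0 from 9.44 to 9.70. On chromosome 19 the core chr19:45294414-45294788, at 2.25 and 2.06, was preceded at 525 bp by a run at 0.57 and 0.19, a drop of 1.77. On chromosome 10 the core chr10:68795548-68796430, at 2.44 and 2.13, was preceded at 559 bp by a run at 1.57 and 0.41, a drop of 1.30 with the arrays far apart. That run was at 0.25 with normexp and loess. In the chromosome 19 run, 0 of 3 probes were well above background in every dye and array.

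**Figure D2:**
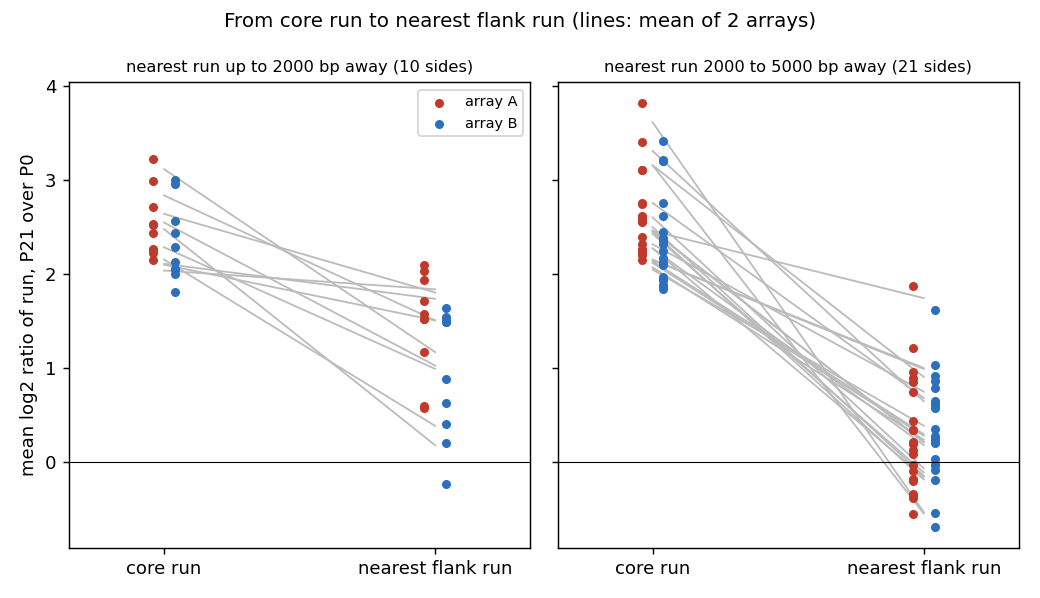
Mean log2 ratio of P21 over P0 of each core run (left in each panel) and of the nearest flank run (right), with points for array A (red) and array B (blue) and a grey line per core side for their mean; the left panel holds the 10 sides with a gap up to 2000 bp and the right panel the 21 sides with a gap from 2000 to 5000 bp. All lines fall, from a core median of 2.38 to a run median of 1.34 on the left and from 2.45 to 0.23 on the right. Lone probes nearer to the core are not shown.

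Where flank runs of at least 2 probes lay on both sides of a core within 20000 bp, a mean of at least 1 was found on at most 1 side. There were 19 such cores, with lone probes left out. In 0 of them did both nearest runs reach a log2 ratio of 1, in 4 of them 1 side did, and in 15 neither did, while in 9 both sides were within 0.5 of 0. The widest difference was at the chromosome 4 core with the smallest drop, whose lower-coordinate run was at 1.84 and whose other side, 11036 bp away, was at -0.10. At the core chr5:135538166-135539070, which was at 3.11 on A and 3.21 on B, the run 3308 bp before it was at -0.56 and -0.55 and the run 4046 bp after it at 0.89 and 0.91. At the core chr5:118698622-118699353 both sides were called higher by limma, the run before it at 1.51 and the run 5855 bp after it at 0.59. Lone probes left out of these counts could also be raised, as at 1.75 on one side of the core chr4:124207191-124207753, whose other side was at 0.23, and at 1.32 next to the core chr8:123390622-123392089. The gaps on the sides differ, so this is a count of outcomes and not a comparison at matched distance.

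The arrays could also be used in turn, with cores chosen on 1 array and flanks read on the other. Cores with a mean of at least 2 on array A alone numbered 143, and their flanks read on array B had class medians of 1.27, 0.05, 0.25, 0.09 and 0.06 from the nearest to the farthest. Cores chosen on array B alone numbered 105, and their flanks read on array A had medians of 1.52, 0.94, 0.16, 0.01 and 0.06. In the nearest class 20 of 32 probes read at least 1 on array B and 13 of 19 on array A. In both directions the nearest class was high on the array that had not chosen the cores. The class from 1000 to 2000 bp was high on array A and near 0 on array B. The cores themselves had a median of 2.14 when read on array B and 2.49 when read on array A. Both arrays had a part in the main rule, and nearby probes may share a fragment with the core. These readings are therefore a description and not separate evidence.

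Read as whole runs, 112 flank runs held at least 2 probes. The limma model, fitted on all 18761 such runs of the arrays with Benjamini-Hochberg adjustment and a threshold of 0.05, called 20 of the 112 higher at P21 (17.9%) and 2 lower (1.79%). Over all runs it called 7.65% higher and 3.99% lower, and as the cores were chosen on the same contrast nothing is read from the gap. The higher calls were 6 of 8 runs between 500 and 1000 bp, 1 of 2 between 1000 and 2000 bp, 7 of 24 between 2000 and 5000 bp, 3 of 27 between 5000 and 10000 bp and 3 of 51 beyond. A mean of at least 1 was reached by 11 runs. With normexp and loess, which leaves 51 cores and 43 flank runs, 7 were called higher and 0 lower. No share of all runs with those values is set beside these counts, so nothing is read from them.

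**Figure D3:**
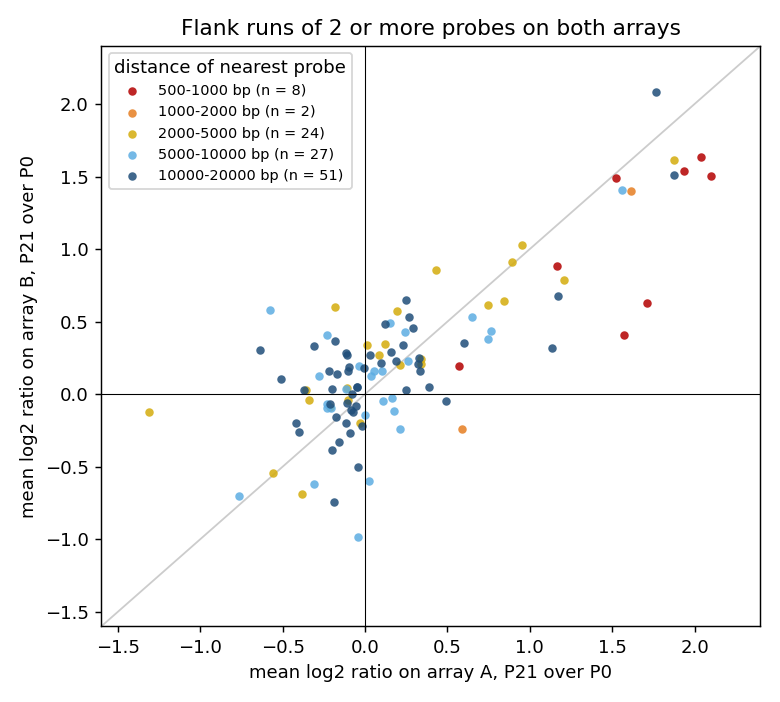
Mean log2 ratio of P21 over P0 on array A (horizontal axis) and array B (vertical axis) of the 112 flank runs of 2 or more probes, coloured by the distance of the nearest probe from the core edge; the grey line marks equal values. The 8 runs nearest to a core (dark red) are above 0 on both arrays, and the 51 runs beyond 10000 bp (dark blue) have a median of 0.03.

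The highest flank runs included some far from their core. First in mean was chr2:105467752-105469094, 12503 bp from its core, at 1.76 on array A and 2.08 on array B (1.92 ± 0.23, SD, n = 2), or 3.79-fold. A run that lies between it and the core was at 0.21, so the raised signal was not continuous with the core. On chromosome 8, chr8:87612228-87613221, 13314 bp from its core, was at 1.88 and 1.51 (1.69 ± 0.26, SD, n = 2), and no other run lay between. With normexp and loess the chromosome 2 run was at 0.96 and the chromosome 8 run at 1.07. On chromosome 14, chr14:24144661-24145290, 5825 bp from its core, was at 1.56 and 1.41 (1.48 ± 0.11, SD, n = 2). This was the most even of the 10 highest runs, with all 4 probes between 1.45 and 1.51, and it was bright, with a mean log2 intensity of 12.0 at P0. With normexp and loess it was at 1.39.

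Closer to their cores, chr3:88329393-88329881, 2396 bp away, was at 1.87 on array A and 1.61 on array B, or 3.35-fold, and at 1.59 for the mean with normexp and loess. All 4 of its probes were between 1.61 and 1.82. The core chr2:167850680-167850974, at 2.996 and 2.286, was followed by a pair of raised runs. The first, chr2:167851626-167851966, starts 652 bp away and was at 2.10 and 1.51, and the next, chr2:167852498-167853425, starts 1524 bp away and was at 1.62 and 1.40. Every one of the 10 probes in this pair of runs was 2-fold higher, from 1.06 to 2.13, and 3 of the 7 probes of the farther run were near 2 while the 4 farthest were between 1.06 and 1.24. The flank of this core was thus raised at every measured probe out to 2407 bp in the main values. Under normexp and loess the nearer run of the pair was at 1.31, and the farther one fell below 2-fold, to 0.94. The run chr5:118697915-118698108, at 1.52 and 1.49, lies between a pair of cores with means of 2.84 and 2.10, whose edges are 1483 bp apart. With normexp and loess this last run was at 0.74, and its higher probe had a log2 intensity of only 5.95 at P0.

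The remaining high runs had low intensity at P0, though not all of their probes were near background. On chromosome 1, chr1:159287583-159287848, 726 bp from its core, was at 1.93 and 1.54, but only 1 of its 3 probes was well above background in every dye and array, and it was at 0.47 with normexp and loess. The chromosome 4 run with the smallest drop had a mean log2 intensity of 6.38 at P0 and was at 0.76 with normexp and loess. Its 2 probes were well above background in every dye and array. On chromosome 15, chr15:98601340-98602273 was at 1.71 and 0.62 beside a core at 3.12, with 2 of 5 probes not well above background at P0 on either array, and was at 0.38 with normexp and loess. The part of background correction in these values was not tested further.

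Lowered flank runs were smaller in size than the raised ones. The lowest with 1 sign on both arrays was chr2:156456582-156457659, 8830 bp from its core, at -0.77 on array A and -0.70 on array B, which is 1.66-fold lower at P21, with all 4 probes between -0.78 and -0.67. The limma model called it lower, as it did chr5:135534094-135534858, at -0.56 and -0.55. The run chr4:124486842-124487645, at -1.31 and -0.12, had 0 of 3 probes well above background in every dye and array. The other 3 of the lowest 6 were chr17:14426817-14428162, at -0.38 and -0.69, chr4:147017784-147018170, at -0.04 and -0.99, and chr16:4563046-4563637, at -0.31 and -0.62. They did not pass in limma.

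Along a run, flank probes changed little from one to the next, with exceptions at which the ratio stepped within a short distance. These steps were looked for after the values had been seen. Among 469 pairs of neighbouring flank probes in 1 run, a median of 160 bp apart, the median step was 0.10 log2 units. A step of at least 1 in the same direction on both arrays was found at 6 pairs (1.28%), in 6 runs, between probes 78 to 521 bp apart.

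The longest raised stretch was set off by such a step. On chromosome 4 the core chr4:131187281-131187736 was at 2.25 on array A and 2.38 on array B. A run of 24 probes begins 3774 bp after it, and its first 8 probes, chr4:131191510-131192508, were at 2.54 and 2.20, or 5.17-fold, each between 2.12 and 2.73. The other 16 probes of the run had a mean of -0.07. The step lies between the probes that start at 131192464 and 131192981, from 2.52 to -0.15. The 8 probes were as high as the core itself, at a mean log2 intensity of 9.76 at P0, and were at 1.95 with normexp and loess. The run as a whole was no core run because the rule averages all 24 probes.

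A similar arrangement was found on chromosome 15 beside the core chr15:102846563-102847189, which was at 3.40 and 3.22. The 4 probes nearest to it in a run of 16, chr15:102843707-102844054, were at 1.96 and 1.99, and the other 12 had a mean of 0.20, split as -0.08 on A and 0.48 on B. The step from 1.97 to 0.32 was between probes 178 bp apart. On chromosome 8 the run described above was made of 1 probe at 0.07 and 3 probes, chr8:87612427-87613221, at 2.38 and 2.09. In that run the unchanged probe was the one nearest to the core. On chromosome 6 the step bounded a lowered stretch, and the ratio rose across it with distance from the core. In the run that begins 17915 bp after the core chr6:83387264-83387640, the first 4 probes, chr6:83405555-83405922, were at -1.71 and -1.53, which is 3.07-fold lower at P21. The other 13 flank probes of the run had a mean of 0.00, and the step lies between probes 78 bp apart. These 4 bright probes, at a log2 intensity of 13.7 at P0, are all 4 of the 2-fold lower flank probes, and they were at -1.54 with normexp and loess.

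**Figure D4:**
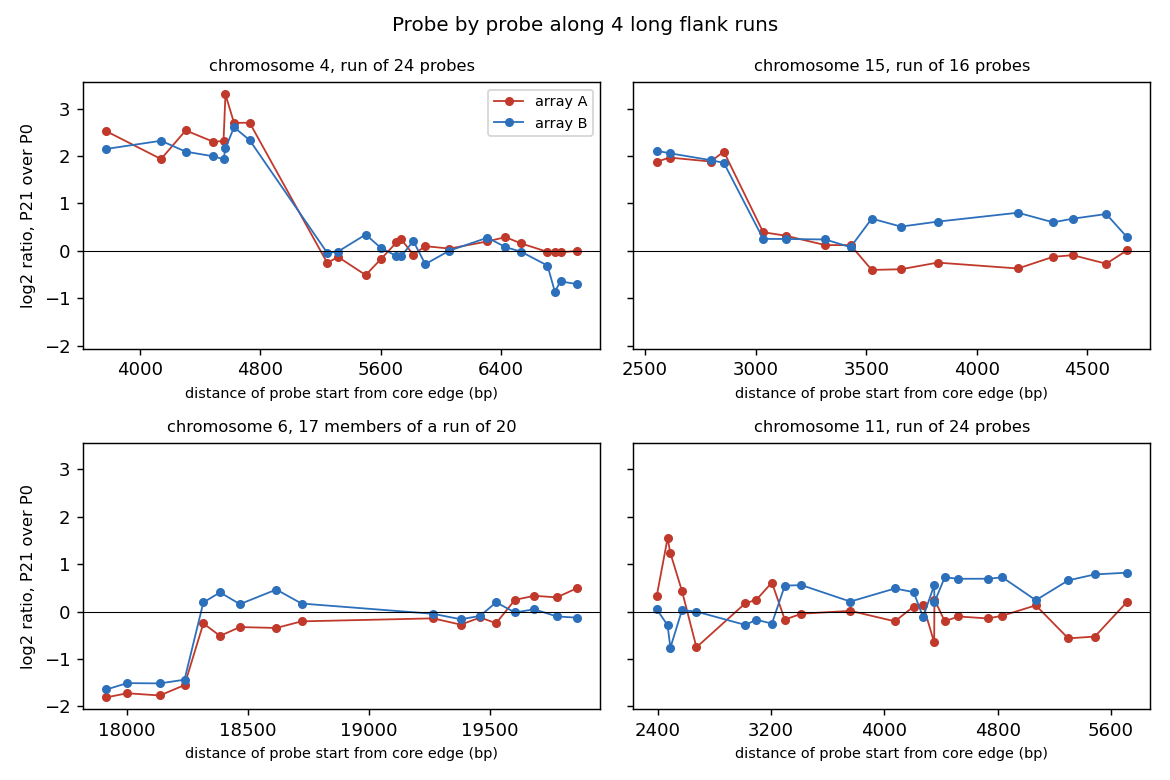
Log2 ratio of P21 over P0 of each flank probe on array A (red) and array B (blue) by the distance of its start from the core edge in bp, along 4 long flank runs. On chromosome 4 the first 8 probes lie near 2.37 and the other 16 near -0.07, on chromosome 15 the 4 probes nearest to the core lie near 1.97, on chromosome 6 the first 4 lie near -1.62, and the 24 probes on chromosome 11 show no step on both arrays.

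Counted in stretches, the 63 2-fold higher probes formed 26 stretches of neighbours. Of these, 14 held at least 2 probes and 51 of the 63 probes (81.0%), against 89.4% of the 2-fold higher autosomal probes outside core runs, and the longest was the stretch of 8. The other 12 were lone. Inside the 18 runs with at least 4 flank probes within 5000 bp, the probes nearer to the core were higher than the farther ones in 7 runs, with a median difference of -0.05. Of these 18 runs, 15 begin beyond 2000 bp, where the class medians change little, so they say little about a slope close to the core. The largest differences were falls with distance on both arrays, of 0.90 in the chromosome 15 run of 16 probes and of 0.83 in the farther raised run on chromosome 2.

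The number of flank probes differed widely between cores. The core with the most, chr11:120056111-120056448, was at 2.61 on array A and 1.94 on array B and had 51 flank probes in 6 runs, from -0.38 to 0.63, of which 0 were 2-fold higher. The fewest, 1 each, belonged to chr4:55229725-55230150, a core at 3.28 whose probe was at 1.57, and chr4:107238473-107239267, a core at 2.19 whose probe was at 2.16. The median over cores with any flank probe was 8 probes. For 55 of the 63 cores the median of the flank probes was within 0.5 of 0.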

How the data were processed

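The deposited scanner files hold log10 ratios of red over green processed signal, background-subtracted and dye-normalised, and linear processed, spot and background intensity values, per the file headers (Feature Extraction 10.5.1.1, where the submitters' processing notes give version 9.1.3.1). The deposited flags, 0 or 1, mark control, outlying, saturated and well-above-background spots, per the file headers. In the authors' own deposited value table these log10 ratios appear rounded and with array A turned. Its largest difference from the turned ratios was 0.00496.

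The log10 ratios were converted here to log2, given the sign of P21 over P0 on array A, and centred on each array's median. Of 96645 spots, 6110 controls and 800 with an outlier flag (1 of them a flank probe) were left out, and 0 were saturated. For 9 probes spotted more than once the mean was taken, leaving 89726 probes. The main values had no further dye normalisation, because many probes may shift one way. Runs were joined over all non-control probes. The 21369 runs held 18761 with at least 2 probes, which limma 3.58.1 (lmFit and eBayes, R 4.3.3) tested against 0; with 2 arrays this has 1 residual degree of freedom and a shared prior. Other steps used Python 3.11.15 with pandas 2.3.3, and in R the package data.table, version 1.17.8. Scripts were tested on simulated data.

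In place of random runs of the same size, all 18252 other autosomal runs of 2 or more probes were used, weighted to the cores' probe numbers. Runs are named by a rule: the 10 highest and 6 lowest flank runs of at least 2 probes with 1 sign on both arrays, the 5 largest and 5 smallest drops within 2000 bp, and the cores with most and fewest flank probes. Other named probes, stretches and cores were chosen after their values were seen. The members, classes and lists were chosen with earlier results of these data known. Alternatives changed the background and dye correction, flags, dim-probe filter, run gap, core threshold, array and prior. A number of 2 arrays limits precision, and no sequence was read because no genome of build mm8 was used here.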

Additional observations from a re-analysis of the deposited data

How the results depend on the processing

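Of 158 recomputed values, 92 stayed within the spread between arrays or within 1.5 times a count, 60 moved and 6 were classed as reversed in sign. The median between 5000 and 10000 bp, 0.025 with a spread between arrays of 0.044, is not counted among these 6. It was also below 0 with normexp and loess (-0.014), with a core mean of at least 3 (-0.043) and without array B (-0.0017). The median between 2000 and 5000 bp and its difference from other runs stayed within the spread between arrays, which is nearly as large as the values themselves. That median was 0.23, and it was 0.10 with normexp and loess, 0.10 with a core mean of at least 1.5, and 0.098 to 0.32 with 1 array left out. The nearest class stayed above 0 under every alternative that has one. With normexp and loess applied throughout (51 cores, 200 flank probes), the median and its difference from other runs were 1.26 and 1.27 in the nearest class and 0.046 and 0.070 between 1000 and 2000 bp. The difference was -0.0098 between 5000 and 10000 bp, and beyond that the median and difference were -0.030 and -0.027. Probes 2-fold higher then numbered 16 and lower ones 0, the drop was 2.08, and limma called 7 runs higher and 0 lower. The counts of probes and runs in this section have no share over all probes or runs beside them, so nothing is read from them. On the original flank probes, an alternative chosen after seeing the data, the medians were 0.81 and 0.20 in the nearest classes and 33 probes were 2-fold higher. Leaving out in each class the run with most probes, also chosen then, moved no median beyond the spread between arrays.

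Joining at 250 bp (170 cores, 1271 flank probes) gave medians and differences of 0.90 and 0.91, 0.19 and 0.22, 0.074 and 0.074, and 0.019 and 0.025 for all classes but the one from 2000 to 5000 bp. It gave 255 probes 2-fold higher and 11 lower, and 73 runs called higher and 6 lower. Joining at 1000 bp, which leaves no nearest class, gave 0.20 and 0.30 between 1000 and 2000 bp, 38 2-fold higher probes and a drop of 2.25. A core mean of at least 1.5 (307 cores) gave 0.97 and 1.03 in the nearest class and 0.042 and 0.11 in the next. It gave a difference of 0.061 between 5000 and 10000 bp and a median of -0.0018 and a difference of 0.0070 beyond, 147 probes higher, 19 lower, a drop of 1.66, and 45 runs called higher and 17 lower. A core mean of at least 3 (17 cores) gave -0.043 and -0.041 between 5000 and 10000 bp and 0.19 and 0.20 beyond, 9 probes higher, 0 lower, a drop of 2.67, and 3 runs called higher and 1 lower. Restricted to probes well above background, the farthest difference was 0.042, the drop 2.08 and 7 runs were called lower. Loess on the processed signals and limma's trend and robust settings each called 4 runs lower.

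With 1 array left out and cores chosen on the other alone, the median between 1000 and 2000 bp was 0.11 to 0.49 and its difference 0.20 to 0.53. The corresponding values were -0.0017 to 0.090 and 0.014 to 0.080 between 5000 and 10000 bp, and -0.011 to 0.069 and 0.0019 to 0.063 beyond. Without 1 array, 10 to 18 probes were 2-fold lower and the drop was 2.02 to 2.15. Leaving out an array leaves no limma test of calls. Each array holds both ages as 1 ratio, so the ages were already paired within the array and no further pairing was made. The numbers of cores and probes also changed, upwards under some rules and downwards under others, and the cause of these shifts was not tested.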
